A study of Bos taurus with 8 samples.

Results

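Cholesterol and fatty acid synthesis was described here through 30 listed genes. These were 8 enzymes of the mevalonate arm, 10 of the sterol arm, 6 fatty acid enzymes, and 6 genes that are regulators or a sterol carrier. A gene counted as measured when the accession of a probe matched its entry in the RefSeq table of the cattle genome. This held for 26 of the 30 genes, with 61 of the 43653 probes, out of 12603 genes with a matched probe. All 26 were well above background, in the scanner software's own sense, on every array, so that each of them was among the 10950 genes tested. INSIG2, STARD4, FASN and FADS1 were not analysed here.

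Cells build cholesterol from acetyl-CoA, first through the mevalonate arm to squalene and then through the sterol arm, in which the rings are closed and trimmed. SREBP transcription factors, encoded by SREBF1 and SREBF2, are held in the endoplasmic reticulum by SCAP and the INSIG proteins while sterols are plentiful, and switch on the enzymes of the pathway when sterols run low. SREBPs also act on fatty acid synthesis, in which ACLY supplies acetyl-CoA, ACACA commits it, and elongases and desaturases finish the chains.

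RNA of 8 cell samples from HanWoo, a Korean cattle breed, was hybridized, each on a one-colour Agilent array of its own. Embryo-derived stem-like cells (eSLCs) came from blastocysts and were kept on STO cells, a mouse feeder line, inactivated with mitomycin-C, and each line was hybridized once. The in vitro produced (IVP) embryos gave the lines I2 (passage 35) and I9 (passage 30). Nuclear transfer (NT) embryos gave N2 (passage 36) and N7 (passage 30), and parthenogenetic (PA) embryos gave P1 (passage 31) and P4 (passage 36). NT embryos were made with ear skin donor cells, and PA embryos carry no paternal genome. The controls were somatic cells (SCs) at passage 5 (SC P5) and passage 10 (SC P10), for which neither the tissue nor separate cultures are stated. eSLCs were kept in a defined medium with N2 and B27 supplements and the inhibitors PD184352, SU5402 and CHIR99021, and SCs in DMEM with serum. Between eSLCs and SCs, cell type, medium, passage and the feeder cells, stated for eSLCs only, therefore cannot be told apart. SC passage and slide cannot be told apart either. SC P5 lay on slide 1 with I2, I9 and N7, and SC P10 on slide 2 with N2, P1 and P4. Values below are normalized signals, with the 75th percentile of each array set to 1000, or differences of their log2. In such bulk RNA, fewer cells of a type and less RNA per cell cannot be told apart.

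The arrays were comparable in quality, with 71.2% to 76.7% of spots well above background. Of 10 trophectoderm markers, 9 were higher in eSLCs and 0 lower, and their summed signal was 422157 to 1249210 on the eSLC arrays against 13528 and 13132 on SC P5 and SC P10. CDX2, ELF5 and PAG2 were not well above background on either SC array. Of 11 skin fibroblast markers, 10 were lower in eSLCs, with a summed signal of 5516 to 10732 against 665724 on SC P5 and 823086 on SC P10. Among the epiblast and pluripotency markers, LIN28A and DPPA4 rose, SOX2 fell, and POU5F1 and NANOG passed no test. N7 stood apart by the hypoblast markers HNF4A, at 9022 against 8.17 to 23.4 on the other eSLC arrays, GATA4 and PDGFRA. The hypoblast marker SOX17 did not set N7 apart, at 2664 against 1908 to 2946. POU5F1 was also highest in N7 among the eSLC arrays, at 898 against 30.7 to 101. The part of these other cell types in the synthesis genes' signals was not tested.

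The SC arrays stood apart from each other in these genes before any eSLC was considered. SC P5 was higher than SC P10 in 25 of the 26 genes, with a median log2 difference of 0.99, while the median over all genes tested was 0. In 13 of the 26 genes SC P5 was at least 2-fold higher, against 1.79% of all genes tested, and in 0 of them SC P10. Of the 61 probes, 60 were higher on SC P5. SC P10 was the lowest of the 8 arrays in 24 of the 26 genes, against 17.9% of all genes. With 1 array of each passage, no test of this difference could be made. Its median lay between 0.93 and 1.03 when the arrays were scaled to the median, quantile normalized, background-corrected by normexp or averaged over probes.

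**Figure D1:**
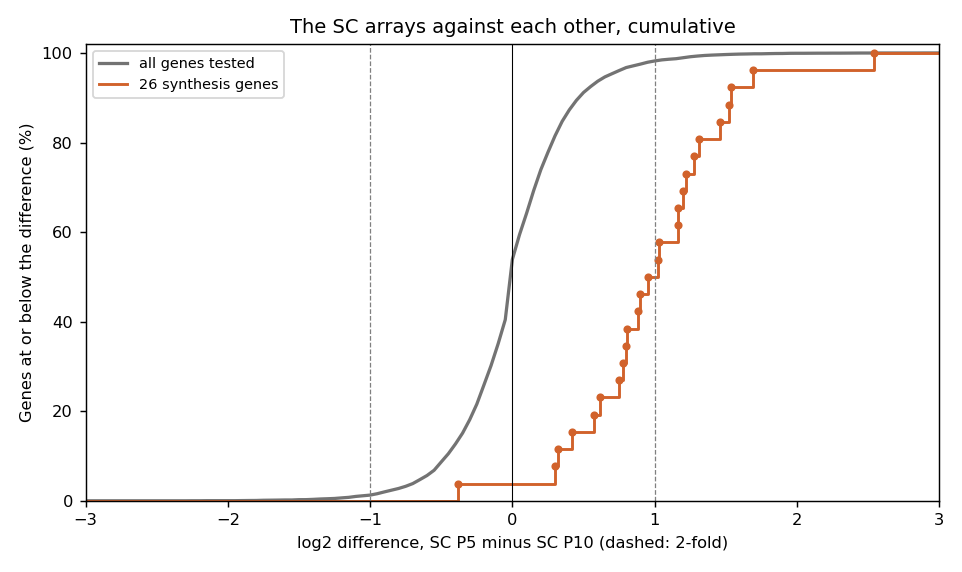
Cumulative share of genes (y axis, percent) at or below a given log2 difference between SC P5 and SC P10 (x axis), for all genes tested (grey) and the 26 synthesis genes (orange, 1 point each). The orange curve lies to the right of 0 except for SCAP, and 13 of its 26 points lie beyond the 2-fold line.

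The regulator INSIG1, which retains SREBP in the endoplasmic reticulum and is itself a target of SREBP, was 4638 on SC P5 and 1439 on SC P10, a ratio of 3.22. HMGCS1, which makes HMG-CoA, had a ratio of 2.90, IDI1, the isopentenyl diphosphate isomerase, 2.87, and ACAT2, the thiolase of the first step, 2.75. TM7SF2, a sterol reductase, had the highest ratio of the 26 genes, 5.82, from 526 to 90.3. Ranked by this difference among all 10950 genes, 7 of the 26 genes stood among the first 100, and TM7SF2 was the second. The lowest ratios were those of SREBF2 at 1.23, ACACA at 1.25 and ELOVL6 at 1.34. SCAP alone was higher on SC P10, with 9746 on SC P5 and 12720 on SC P10, and this order turned when its probes were averaged. Among genes outside the 30, SCD, the stearoyl-CoA desaturase, had the same order of the SC arrays, with 55392 on SC P5 and 17752 on SC P10, and so did ACSS2, an acetyl-CoA synthetase, with 379 and 52.1.

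No sample lay on both slides, so that slide and line cannot be told apart among the eSLC arrays either. Between the 3 eSLC lines on slide 1 and the 3 on slide 2, the 26 genes had a median log2 difference of -0.04. The median of all genes was also -0.04. Of the 26 genes, 0 reached 2-fold in either direction, against 1.79% of all genes above and 1.74% below. N7 and N2, the NT lines on slides 1 and 2, had a median difference of -0.38 (N7 minus N2), against 0 for all genes. At least 2-fold lower in N7 were 4 of the 26 genes and higher 0, against 12.2% and 8.17% of all genes.

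The first comparison asked which of these genes differ between eSLCs, taken as the mean of the 3 origins, and SCs. A gene was called at an adjusted p under 0.05 and a difference of at least 2-fold. Of the 26 genes, 6 rose in eSLCs (HMGCS1, MVD, FDFT1, MSMO1, ELOVL6 and FADS2) and 0 fell. Over all genes tested, 19.7% rose and 15.7% fell. The share called higher was therefore close to that of all genes, and the share called lower, 0 of 26, was below it. With the adjusted p alone, 10 of the 26 genes were higher, against 27.5% of all genes. The median log2 difference of the 26 genes was 0.85, and that of all genes 0.23. All 6 eSLC arrays lay above both SC arrays in 9 of the 26 genes, against 34.0% of all genes, and below both in SCAP alone, against 23.6%.

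The count moved with the SC array. Without SC P10, ELOVL6 was the only gene called, against 13.5% of all genes, and without SC P5, 12 of the 26 were called, against 11.7%. Within slide 1, where I2, I9 and N7 stood against SC P5, the median difference of the 26 genes was 0.39 and 2 reached 2-fold, with 23.4% of all genes. Within slide 2, where N2, P1 and P4 stood against SC P10, the median was 1.32 and 18 reached 2-fold, with 23.1% of all genes. The medians of all genes were 0.19 and 0.25. With the slide as a block, 4 of the 26 genes were called. The number of all genes called higher was then slightly below that without the block, which was 19.7% of genes.

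**Figure D2:**
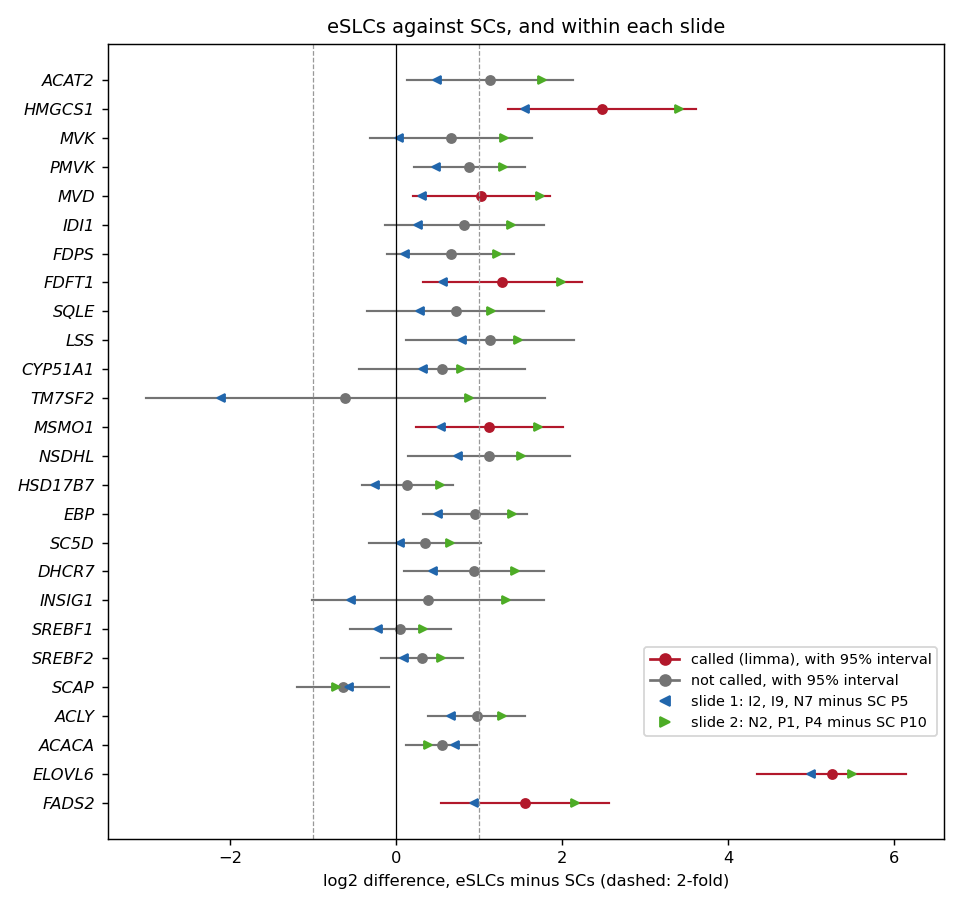
Log2 difference between eSLCs and SCs for each gene (x axis), with the 95% interval of the limma fit, red where called; blue and green triangles give the difference within slide 1 and within slide 2. In 24 of the 26 genes the slide 2 triangle sits to the right of the slide 1 triangle, and ELOVL6 is far from the others at 5.25.

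The mevalonate arm held 3 of the 6 called genes, and all 8 of its genes were higher on SC P5 than on SC P10, 6 of them at least 2-fold. HMGCS1 was 23277 in I2 and 15129 in I9, 21653 in N2 and 11889 in N7, and 19993 in P1 and 18885 in P4, against 5503 on SC P5 and 1895 on SC P10. On the brightest probe of HMGCS1, but not on its dimmest, every eSLC array lay above both SC arrays. The brightest probe of HMGCS1 was 5.58-fold higher on average (log2 difference 2.48, SE 0.46, limma adjusted p = 0.00697). Without SC P10 its difference was 1.71 with a limma adjusted p of 0.0532. MVD, the decarboxylase that yields isopentenyl diphosphate, was 4663 to 5704 on the eSLC arrays, the narrowest spread of the 26 genes (SD 0.11 on the log2 scale, n = 6). It was 3964 on SC P5 and 1636 on SC P10, so that eSLCs were 2.03-fold higher (SE 0.34 on the log2 scale, limma adjusted p = 0.049). FDFT1, the squalene synthase that opens the branch to sterols, was 13018 to 24799 on the eSLC arrays, 12036 on SC P5 and 4838 on SC P10, which gave 2.43-fold (log2 SE 0.39, limma adjusted p = 0.0394). Both calls lay near the thresholds.

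The other genes of this arm were not called. PMVK, phosphomevalonate kinase, was 2128 to 3924 on the eSLC arrays, above both SC arrays at 2066 and 1349, and missed the 2-fold limit at 1.85-fold (limma adjusted p = 0.0414). ACAT2 was 3228 to 5751 against 3235 and 1177, and differed by 1.13 on the log2 scale (limma adjusted p = 0.0652). IDI1 was 9068 to 15189 against 11134 and 3879. FDPS, which makes farnesyl diphosphate, was 45096 to 63232 against 48597 and 23889. MVK, mevalonate kinase, was 19002 to 53861 against 28902 and 15672. In the last 3 genes the range of the eSLC arrays held SC P5, and SC P10 lay below it.

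**Figure D3:**
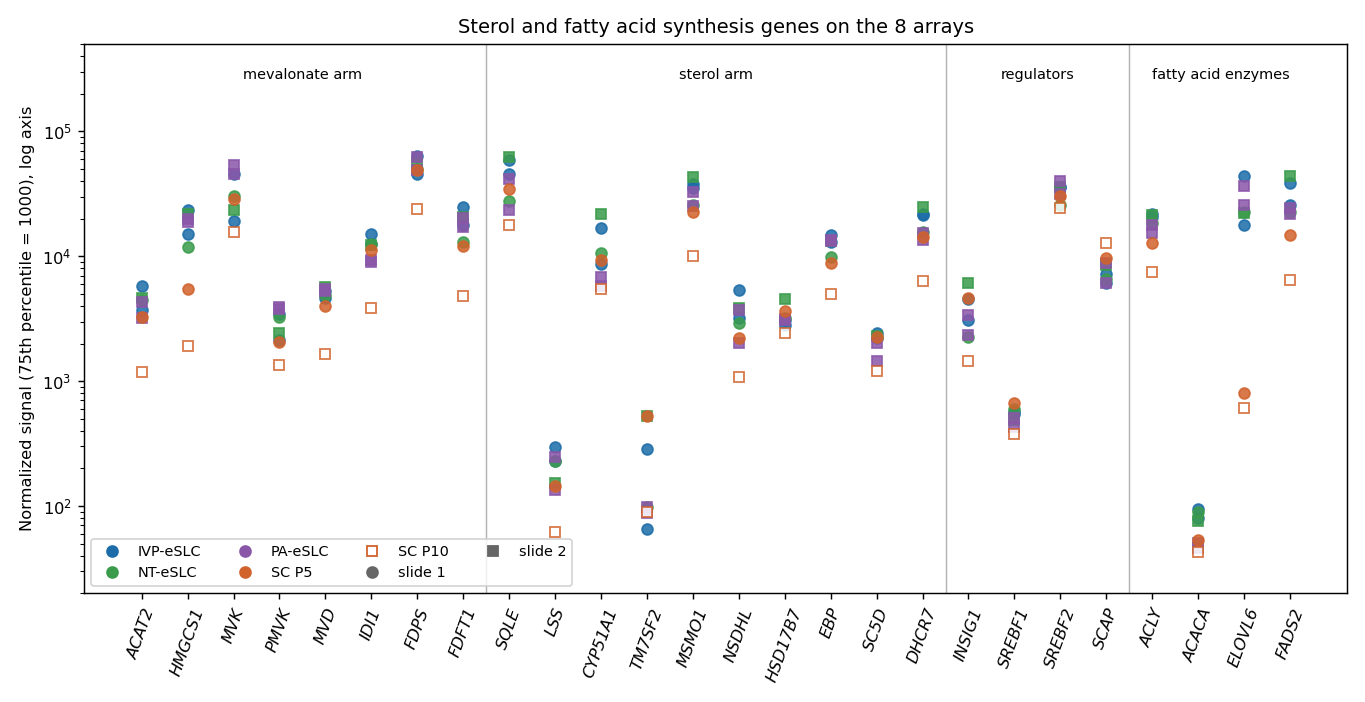
Normalized signal (y axis, log scale) of the 26 genes on each of the 8 arrays, coloured by group, with circles for slide 1 and squares for slide 2; columns are ordered by role. SC P10 (open square) is the lowest point in 24 of the 26 columns, and SC P5 (filled orange circle) is often among the eSLC points.

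In the sterol arm 1 of the 10 genes rose. MSMO1, the C4 sterol methyl oxidase, was 38018 in I2, 35008 in I9, 42722 in N2, 25855 in N7, 32675 in P1 and 25099 in P4, against 22406 on SC P5 and 9976 on SC P10. The eSLC arrays lay above both SC arrays, by 2.18-fold (log2 SE 0.36, limma adjusted p = 0.0463), and N7 and P4 lay close to SC P5. This call held in 7 of the 21 alternatives. EBP, the sterol isomerase, was also above both SC arrays on every eSLC array, with 9870 to 14770 against 8746 and 5026, and missed the 2-fold limit at 1.93-fold (limma adjusted p = 0.0256). LSS, which closes the sterol rings, NSDHL, a sterol dehydrogenase, and DHCR7, the last reductase, were higher in eSLCs by 1.13, 1.12 and 0.94 on the log2 scale. Their limma adjusted p were 0.0657, 0.0622 and 0.0667, and in each of them 5 of the 6 eSLC arrays lay above SC P5 and all 6 above SC P10.

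The remaining enzymes of the arm overlapped more widely. SQLE, the squalene epoxidase, was 23378 to 62478 on the eSLC arrays against 34296 on SC P5 and 17688 on SC P10, with P1 lowest and N2 highest. CYP51A1, the lanosterol demethylase, was 5730 to 21585 against 9243 and 5489. SC5D, the sterol C5 desaturase, was 1453 to 2444 against 2243 and 1206. HSD17B7, a ketosteroid reductase of the pathway, was 2811 to 4532 against 3626 and 2432, a log2 difference of 0.14 with a 95% interval of -0.42 to 0.69. These values give no order of eSLCs and SCs. TM7SF2 was the most variable of the 26 genes: it was 65.2 in I2, 284 in I9, 528 in N2, 98.0 in N7, 88.5 in P1 and 97.8 in P4, against 526 on SC P5 and 90.3 on SC P10. N2 and SC P5 were high, I9 was between, and the other arrays were low, so that the groups overlapped.

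None of the 4 measured regulators passed the test. INSIG1 was 3089 in I2, 4582 in I9, 6061 in N2, 2249 in N7, 3357 in P1 and 2324 in P4, against 4638 on SC P5 and 1439 on SC P10. All 6 eSLC arrays lay above SC P10 and N2 alone above SC P5. SREBF1 was 432 to 602 on the eSLC arrays, between 664 on SC P5 and 380 on SC P10, with a log2 difference of 0.05 and a 95% interval of -0.56 to 0.66. SREBF2 was 25811 to 39723 against 30064 and 24404, a difference of 0.32 on its brightest probe, and 0.90 to 1.47 on its other 3. SCAP, the escort of SREBP, was 6078 to 8846 on the eSLC arrays and lay below both SC arrays, with a log2 difference of -0.64 (95% interval -1.20 to -0.09, limma adjusted p = 0.0599). Its probes differed in sign, at -0.38 and 0.96 for the other 2.

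Among the fatty acid enzymes, 2 of the 4 measured genes rose, and all 4 had a median log2 difference of 1.26. ELOVL6, the elongase that takes palmitate to stearate, was 43602 in I2 and 17765 in I9, 22024 in N2 and 22480 in N7, and 36147 in P1 and 25564 in P4. It was 808 on SC P5 and 605 on SC P10. The groups were separated by more than their whole ranges, with eSLCs 38.1-fold higher (log2 difference 5.25, SE 0.37, limma adjusted p = 0.000166). Its 5 probes gave log2 differences of 4.93 to 5.26, the difference was 5.00 within slide 1 and 5.50 within slide 2, and the call held under each of the 21 alternatives. FADS2, the delta-6 desaturase, was 25724 and 38863 in I2 and I9, 43963 and 22604 in N2 and N7, and 21717 and 24404 in P1 and P4, against 14729 on SC P5 and 6403 on SC P10. It was 2.93-fold higher in eSLCs (log2 SE 0.41, limma adjusted p = 0.0253), and 0.94 higher on the log2 scale within slide 1. ACLY was 15480 to 21945 against 12789 and 7473, above both SC arrays on all 6 arrays, and missed the 2-fold limit at 1.96-fold (limma adjusted p = 0.0187). ACACA was 46.6 to 95.5 against 53.7 and 42.9, with P1 and P4 low (1.46-fold, limma adjusted p = 0.0453).

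Of the 26 genes, 21 had more than 1 probe. SCAP was the only one whose probes differed in sign between eSLCs and SCs, and 58 of the 61 probes were higher in eSLCs. HMGCS1 was the called gene with the widest range of probes, at 0.84, 1.58 and 2.48. On the probe at 0.84, I2 at 651 and N7 at 521 lay below SC P5 at 767. On the probe at 1.58, N7 at 955 lay near SC P5 at 950.

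Each origin was then set against the same SC arrays, so that these comparisons are not independent. In IVP-eSLCs 5 of the 26 genes rose (HMGCS1, EBP, ACLY, ELOVL6 and FADS2) and 0 fell, against 17.7% and 14.6% of all genes. In NT-eSLCs 4 rose (HMGCS1, ACLY, ELOVL6 and FADS2) and 0 fell, against 15.8% and 14.0%. In PA-eSLCs 4 rose (HMGCS1, PMVK, EBP and ELOVL6) and 0 fell, against 20.3% and 14.9%. HMGCS1 and ELOVL6 were called in all 3 origins. HMGCS1 was higher by 2.54, 2.31 and 2.59 on the log2 scale in IVP-, NT- and PA-eSLCs, and ELOVL6 by 5.32, 4.99 and 5.44. Without SC P10 the counts called higher fell in each origin, for the 26 genes as for all genes. Without SC P5 they rose for the 26 genes and fell for all genes. Either fit leaves 1 SC array. Within slides, the 26 genes had a median of 0.45 for the IVP lines and 0.18 for N7 against SC P5, and 1.73 for N2 and 1.23 for the PA lines against SC P10.

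Between origins, limma called 0 of the 26 genes for NT- against IVP-eSLCs, as for all genes (0.00%), and 0 for PA- against IVP-eSLCs (0.00%). At an unadjusted p under 0.05 these were 0 and 1 of the 26 genes, and 306 and 568 of all genes. The methods' t-test at the same limits called 0 of the 26 in either comparison, before and after Benjamini-Hochberg adjustment. The median log2 difference of the 26 genes was -0.09 for NT and -0.33 for PA. CYP51A1 had the widest difference between PA- and IVP-eSLCs, -0.95, and ACACA was next with -0.86, from 80.1 and 95.5 in the IVP lines to 50.2 and 46.6 in the PA lines. ACACA was dim, and its other probes differed less. They went from 55.5 and 49.8 to 35.1 and 40.8, and from 32.4 and 36.7 to 27.1 and 30.5. The IVP arrays lay on slide 1 and the PA arrays on slide 2, so that this origin and the slide cannot be told apart.

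Over the 6 eSLC lines, the SD of the 26 genes on the log2 scale had a median of 0.33, near that of all genes, 0.35. It ran from 0.11 for MVD to 1.17 for TM7SF2. Each line was hybridized once, so that these values describe the arrays of the lines. I2 was the highest eSLC line in 11 of the 26 genes and N2 in 9, against 14.6% and 14.9% of all genes. In the mevalonate arm I2 was the highest in 5 of 8 genes and I9 the lowest in 4, against 13.9% of all genes in which I9 was the lowest. In the sterol arm N2 was the highest in 6 of 10 genes, with a median of 0.41 above the mean of the 6 lines, and P1 the lowest in 4, with a median of -0.53, against 17.4% of all genes in which P1 was the lowest. A difference between the arms was not tested. N2 was also the highest line for INSIG1 and FADS2. MVK had another order, with P1 at 53861 the highest and I9 at 19002 the lowest.

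**Figure D4:**
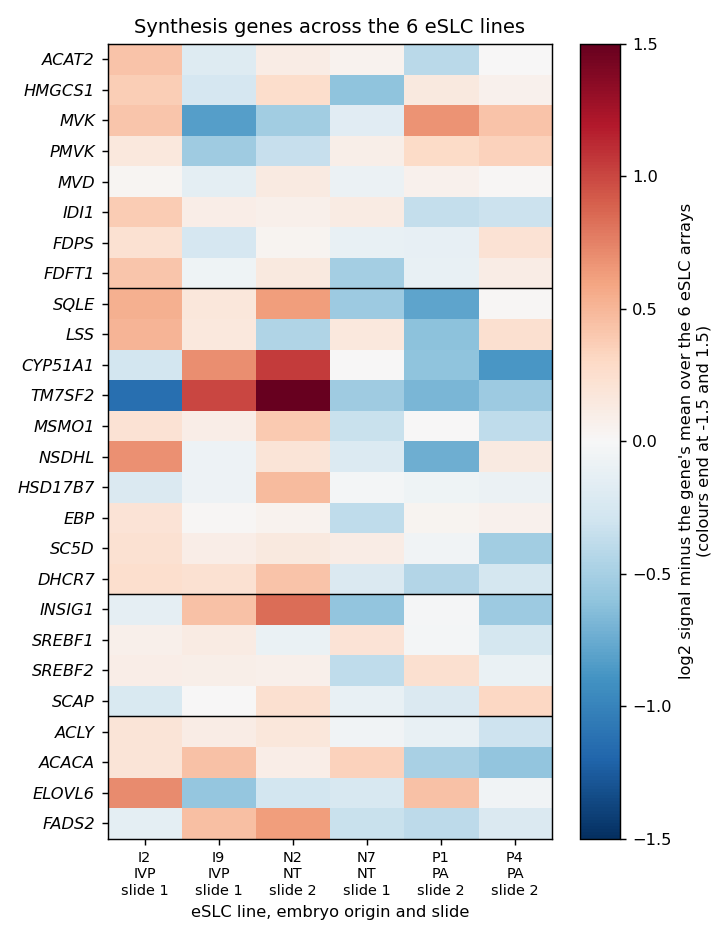
Log2 signal of each gene (rows, grouped by role) in each eSLC line (columns) minus the gene's mean over the 6 lines, red above and blue below. N2 is red in most rows of the sterol arm, where P1 is mostly blue, and I2 is red in most rows of the mevalonate arm.

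Neighbouring steps were read from 7 further lists. In the isoprenoid branch, 2 of 10 genes rose, PDSS1, for the tail of ubiquinone, by 1.67 and NUS1, for dolichol, by 1.12.

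Of 7 genes of SREBP processing and sterol sensing in the endoplasmic reticulum, 4 rose and 1 fell. TMEM97, a binding protein of NPC1, was 28413 to 49367 against 12421 and 8997, and PGRMC1, a membrane haem protein, was 20880 to 29016 against 8019 and 7015, log2 differences of 1.88 and 1.66. ERLIN2, a protein of the endoplasmic reticulum membrane, was 1.19 higher. MBTPS1, the protease that first cuts SREBP, fell by 1.29, from 8966 and 7800 on the SC arrays to 2830 to 4605. MBTPS2, also of SREBP processing, rose by 1.14, from 1355 and 1370 on the SC arrays to 1919 to 4943. The median SC P5 minus SC P10 difference of this list was -0.02, unlike the 0.99 of the synthesis genes.

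Of 13 genes of sterol uptake and transport, 3 rose and 3 fell. VLDLR, a lipoprotein receptor, was 696 to 1773 against 12070 and 10345, 11.0-fold higher in SCs. MYLIP, a ubiquitin ligase, rose by 1.98, and SCP2, a sterol carrier, by 2.00.

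Of 9 genes of sterol storage and efflux, 3 rose and 2 fell. ABCA1, the cholesterol exporter, was 129 to 242 against 23.7 and 14.3, 10.3-fold higher. SOAT1, which esterifies cholesterol, was 5760 to 11543 against 1078 and 1156, 7.04-fold higher. PLIN2, which coats lipid droplets, was 253 to 782 against 2275 and 2314, and NR1H3, the sterol receptor LXR alpha, 857 to 1399 against 5264 and 4321.

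Of 18 other genes of fatty acid synthesis, elongation and desaturation, 6 rose and 4 fell. SCD was 66418 to 165882 against 55392 and 17752, 3.60-fold higher (log2 SE 0.48, limma adjusted p = 0.0236), but 0.77 on the log2 scale within slide 1. The elongases went in both directions. ELOVL2 was 163 to 444 and not well above background on either SC array, at least 32.5-fold higher in eSLCs. ELOVL4 was 18.0 to 148 against 950 and 1200, and ELOVL7 291 to 2988 against 4197 and 3991, 20.9-fold and 6.60-fold higher in SCs. SCD5, a second desaturase, was 2557 and 2366 on the SC arrays and well above background on 4 of the 6 eSLC arrays, at 17.8 to 101. Of 18 genes of fatty acid oxidation, 1 rose and 6 fell: ECI2, an enoyl-CoA isomerase, was higher by 3.42, and ACADL and ACADVL, acyl-CoA dehydrogenases, and ETFDH, which passes their electrons on, fell by 2.15, 1.63 and 1.34.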

How the data were processed

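The 8 arrays were scanned and quantified by the authors with Feature Extraction, and normalized with GeneSpring GX. They deposited linear signal intensities of every spot, with no normalization between arrays, and a series matrix of processed intensities. Here the background-subtracted intensity was used, because the processed signal did not follow its row in 6 of the 8 files (Spearman correlation with the background-subtracted signal 0.161 to 0.216, against 0.971 and 0.973 in N2 and I2). Control and outlier spots were left out, spots of a probe averaged, each array divided by its 75th percentile (set to 1000), with lower values set to 13.3 before log2. The brightest probe stood for a gene. Accessions were matched to RefSeq, assembly ARS-UCD2.0; the array grid names another build, so no coordinates are given.

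The fit over all 8 arrays used limma (version 3.58.1; R version 4.3.3) with a mean per condition. A gene entered when it was well above background on both arrays of any condition, which left 10950 genes; 8 more genes lacked a value on an array. Calls needed a Benjamini-Hochberg adjusted p under 0.05 and 2-fold. Each condition had 2 arrays, which limits the precision. Whether the SC arrays came from separate cultures is not stated, so their spread may be technical. The fit was tested on simulated data. Figures were drawn with matplotlib version 3.10.9.

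The 30 genes and the other lists were chosen with earlier results of these data known. Named are all 26 measured genes, up to 4 called genes with the largest difference per list, and SCD; some genes are not reported here. INSIG1, TM7SF2, ACSS2, MBTPS2 and marker genes were also singled out after their values were seen. Alternatives were scaling, background, filter, probe, floor, SC arrays as 1 sample, series matrix, samples in the fit, slide block, the methods' t-test, the call rule and each array left out.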

Additional observations from a re-analysis of the deposited data

Results flagged for a closer look

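Within the 6 eSLC arrays, the lowest or highest signal of each of the 26 genes was compared with the rest by Dixon's test, which by chance marks about 1 in 20 groups. HSD17B7 stood out in N2, at 4532.49 against 3205.78 on the nearest array. EBP stood out in N7, at 9870.22 against 13027.1 on the nearest array. Neither gene was called between the mean of the eSLC origins and SCs, while EBP was called in IVP- and PA-eSLCs against SCs.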

How the results depend on the processing

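The count of synthesis genes higher in eSLCs than in SCs was 6, and 0 were lower under every alternative run. It was 2 with no filter and with the series matrix values, 3 with quantile normalization, with the floor raised 4 times and with the SC arrays as 1 sample, and 10 with the adjusted p alone. With each array left out in turn it ran from 1 (without SC P10) to 12 (without SC P5). For IVP-eSLCs the count was 5. It was 0 with the methods' t-test after adjustment, 1 with that test unadjusted, with only the conditions compared and with the slide as a block, 2 with quantile normalization and the series matrix, 3 with scaling to the median, no filter or the raised floor, and 1 to 11 with an array left out. For NT-eSLCs it was 4. It was 0 and 1 with the methods' t-test, 1 with no filter, the series matrix and only the conditions compared, 2 with scaling to the median, quantile normalization, the mean of probes, the raised floor and the slide block, and 1 to 8 with an array left out. For PA-eSLCs it was 4. It was 1 with the methods' t-test before and after adjustment, 2 with no filter, the mean of probes and the series matrix, and 1 to 8 with an array left out. Apart from the fits with an array left out, the number of all genes called higher moved the same way in each setting named here. It fell strongly with the series matrix values, and for each origin with the methods' t-test after adjustment. A lower count in these settings is therefore not particular to the synthesis genes. The cause of the changes in the counts was not tested, except that removing SC P10 or SC P5 changes the level of the SCs. The fit with only the conditions compared is the same as the one reported for eSLCs against SCs.

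Signs of single genes turned in 18 cases. With the series matrix, in which the columns of SC P5 and SC P10 agree within 1% for 9359 of 43653 probes, among them the first probes of 17 of these 26 genes, the log2 difference was -0.17 for ACAT2, -0.18 for MVK, -0.044 for MVD, -0.72 for IDI1, -0.095 for SQLE, -0.25 for EBP, -0.39 for SC5D, -0.034 for DHCR7, -0.70 for INSIG1, -0.97 for SREBF1 and -0.23 for ACACA. With each array left out in turn, the lowest value lay without SC P10 and the highest without SC P5: -1.89 to 0.66 for TM7SF2, -0.15 to 0.42 for HSD17B7, -0.10 to 0.79 for SC5D, -0.45 to 1.23 for INSIG1 and -0.35 to 0.45 for SREBF1, which also turned without N7. With quantile normalization the difference was -0.034 for SREBF2. The ELOVL6 call held in 21 of 21 alternatives and that of HMGCS1 in 20. Those of FADS2, FDFT1, MVD and MSMO1 held in 13, 9, 7 and 7. The normexp correction used the median signals, an alternative chosen after seeing the data, since mean signals were not analysed here; the planned version was not run. No paired analysis was possible because the labels give no replicate number that sets samples of different groups together; the numbers used here follow sample order within a group and only name a sample. Signal over background did not limit these genes, all well above background on each array.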

Other observations

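The genes with the largest SC P5 over SC P10 differences, outside the lists, were not sterol genes: GPR21, GBP4, TMEM184B, HDGFL1 and the immediate early gene FOS followed ACSS2 and TM7SF2, with log2 differences of 2.43, 2.39, 2.34, 2.25 and 2.13. They were chosen after their values were seen. FABP3, a fatty acid binding protein, was 10623 on SC P5 and 2788 on SC P10.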
